A study of Saccharomyces cerevisiae with 8 samples.

Results

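Cryptic unstable transcripts (CUTs) that lie opposite no coding transcript were 319 of the 925 CUTs in the annotation of 7272 yeast transcripts. They were chosen by position only, as CUTs that overlap no coding transcript on the opposite strand of the same chromosome. The other 606 CUTs overlap one and are called antisense CUTs below. RNA came from a diploid hybrid of the laboratory strain S96 and the wild isolate SK1 (hybrids A and B) and from pools of haploid spores of that hybrid, enriched for a single mating type (spore pools A and B), all grown in rich medium (YPD). No group carried a mutation in RNA decay by its labels, and pooled spores are a mixture of genotypes, each spore with 1 of the 2 alleles at a locus. Genomic DNA of spore pool A gave the share of each allele, which was taken for both pools. DNA of spore pool B was not used. The values are counts of read pairs that matched only 1 of the 2 genomes, so that a transcript was counted for the SK1 and the S96 allele separately.

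CUTs are short products of RNA polymerase II that the Nrd1-Nab3-Sen1 complex terminates early. The TRAMP complex adds a short tail and the nuclear exosome with Rrp6 degrades them, so that they are scarce in cells with intact decay. Many start in the nucleosome-free region of a gene and run away from it, and the gene on the other side of that shared region is then the divergent neighbour. A cis effect is a difference between alleles in the hybrid, where both meet the same regulators. A local trans effect is a change of the allelic ratio from the hybrid to the spores, where each allele is alone.

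A divergent coding neighbour, with starts at most 500 bp apart, was found for 139 of the 319 CUTs. The starts were 204 bp apart in the median, with quartiles at 172 and 264 bp. 5 windows from such pairs are shown because their CUT was called for a cis effect and named by the rule for cis calls, which asked for the same sign in all 4 libraries and enough pairs. Each window of 240 bases lies upstream of the neighbour, beginning 20 bases beyond its annotated transcript start, so that it can reach into the CUT, as for CUT672, or stop short of its start, as for CUT756. It was read from the RefSeq sequence of S288C, build R64, placed from the neighbour's start codon, and is written 5′ to 3′ on the strand of the CUT. Capitals mark positions that differ between S96 and SK1 in the deposited DNA tables.
CUT756 and FMP27, chrXII:1043620-1043859, minus strand: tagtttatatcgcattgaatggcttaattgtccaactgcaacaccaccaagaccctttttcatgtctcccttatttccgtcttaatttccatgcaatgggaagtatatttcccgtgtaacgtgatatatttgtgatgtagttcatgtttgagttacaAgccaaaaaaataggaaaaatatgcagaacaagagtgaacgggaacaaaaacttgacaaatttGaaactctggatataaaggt
CUT575 and SMC1, chrVI:119125-119364, minus strand: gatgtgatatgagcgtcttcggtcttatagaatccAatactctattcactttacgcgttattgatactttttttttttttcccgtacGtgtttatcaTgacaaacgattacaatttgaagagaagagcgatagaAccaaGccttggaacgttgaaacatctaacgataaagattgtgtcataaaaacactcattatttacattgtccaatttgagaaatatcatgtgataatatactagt
CUT372 and AKR2, chrXV:397387-397626, plus strand: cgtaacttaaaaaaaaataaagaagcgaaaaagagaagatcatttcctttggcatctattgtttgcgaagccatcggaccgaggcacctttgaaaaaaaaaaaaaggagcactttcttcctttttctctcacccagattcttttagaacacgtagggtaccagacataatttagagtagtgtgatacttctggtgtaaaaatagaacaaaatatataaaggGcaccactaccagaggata
CUT672 and CPS1, chrX:97365-97604, minus strand: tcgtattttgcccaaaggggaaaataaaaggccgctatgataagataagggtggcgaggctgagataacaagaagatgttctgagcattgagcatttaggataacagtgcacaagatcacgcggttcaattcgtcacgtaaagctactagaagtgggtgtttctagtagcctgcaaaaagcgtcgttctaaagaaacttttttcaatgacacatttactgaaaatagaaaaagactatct
CUT775 and PKR1, chrXIII:513293-513532, minus strand: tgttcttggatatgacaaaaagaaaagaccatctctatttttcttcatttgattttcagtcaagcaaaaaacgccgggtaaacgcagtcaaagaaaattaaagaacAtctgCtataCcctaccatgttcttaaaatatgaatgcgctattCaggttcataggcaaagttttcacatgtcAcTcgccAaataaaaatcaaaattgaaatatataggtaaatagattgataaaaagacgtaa
The window of CUT775 held 7 such positions, that of CUT575 held 5, that of CUT756 held 2, that of CUT372 held 1 and that of CUT672 none. Over the 130 windows that could be placed outside chromosome XI, the median was 1 position and the range 0 to 9. Among the 8 windows of CUTs called for a cis effect the median was 2.5, and among the 51 of CUTs tested and not called it was 1. This is a description of few windows, and no position was tied to an allelic difference.

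The CUTs were between 105 and 3433 bp long, with a median of 289 bp, against 417 bp for antisense CUTs and 1521 bp for coding transcripts. Many were packed against their neighbours on the same strand. A coding transcript began at the base where the CUT ended in 136 cases, and in 35 cases the CUT began where a coding transcript ended. Of the 139 divergent CUTs, 64 also ran into a coding transcript, and 81 CUTs had none of these arrangements. The annotation mapped both ends of 106 CUTs, and neither end of 14.

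Reads on these CUTs were few. In hybrids A and B and spore pools A and B, 25525, 23722, 30712 and 29214 pairs fell on them, which was 0.0493% to 0.0589% of the 45279970 to 52572032 pairs counted on annotated transcripts. Of the 317 CUTs with a row for both alleles, 53 had no pair in any library and 151 had pairs in all 4. Pairs of both alleles were seen for 208, of SK1 alone for 23 and of S96 alone for 33. The 10 most counted CUTs held 30.8% of the pairs and the 50 most counted 70.3%.

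**Figure D1:**
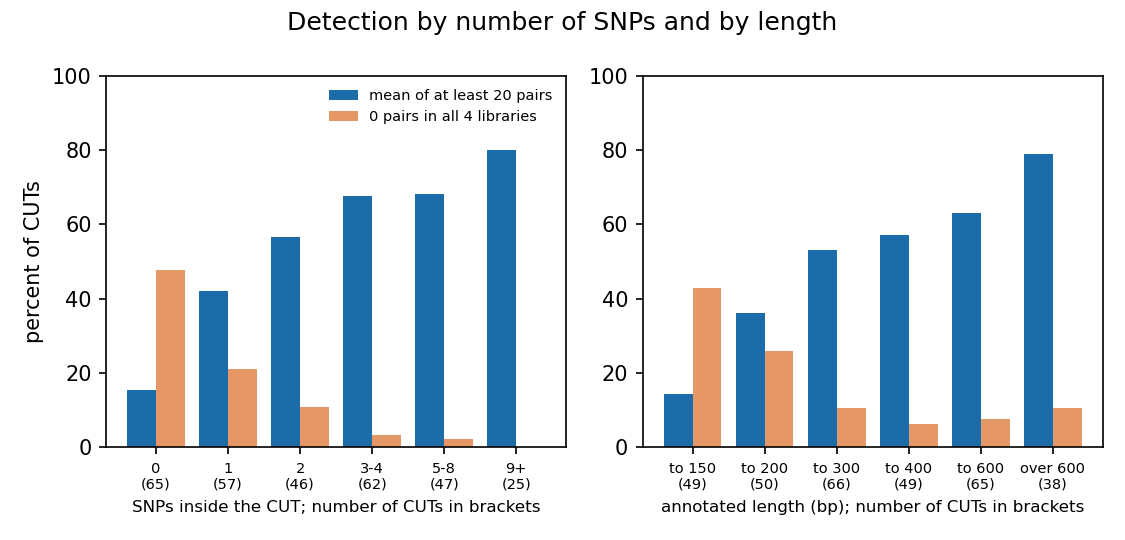
Percent of CUTs with a mean of at least 20 scaled pairs per library (blue bars) and with 0 pairs in all 4 libraries (orange bars), by the number of S96/SK1 SNPs inside the CUT (left, chromosome XI left out) and by annotated length (right). The share at 0 falls from 47.7% without a SNP to 0% with 9 or more, and from 42.9% up to 150 bp to 10.5% above 600 bp.

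Whether a CUT was counted went with the number of SNPs and with its length, and the part of either was not tested apart from the other. Of 65 CUTs without a SNP inside, 31 were at 0 in all libraries and 10 reached a mean of 20 pairs, and of 25 with 9 or more SNPs none was at 0 and 20 reached it. The SNP positions are approximate for these CUTs, and transcripts were counted with 50 bp added. Of 49 CUTs up to 150 bp long, 21 were at 0, and 7 reached a mean of 20 pairs. Among the 38 CUTs longer than 600 bp, 30 reached it. A CUT at 0 allows up to 3 pairs per library, by counting error only.

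In level, these CUTs lay far below coding transcripts and below the other non-coding classes. Scaled by library size and length, the median over the 317 CUTs was 69.1 pairs per library and kb, with quartiles at 9.15 and 248. The median was 394 for 606 antisense CUTs, 204 for 317 stable unannotated transcripts (SUTs) that are not antisense, and 1718 for 5168 coding transcripts. Per SNP in place of per kb, with chromosome XI left out, the medians were 13.9, 83.5, 29.3 and 377 pairs, in the same order of classes. The classes were not matched for length, with medians of 289, 417, 569 and 1521 bp in that order. A pair was counted only if it lay wholly inside the extended transcript. Over the 180 CUTs longer than 200 bp, with a SNP and outside chromosome XI, the median level was 125 per library and kb. Taken library by library, the median of the CUTs was 48.3 and 32.9 in the hybrids and 26.4 and 45.6 in the pools, so that the groups overlapped.

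**Figure D2:**
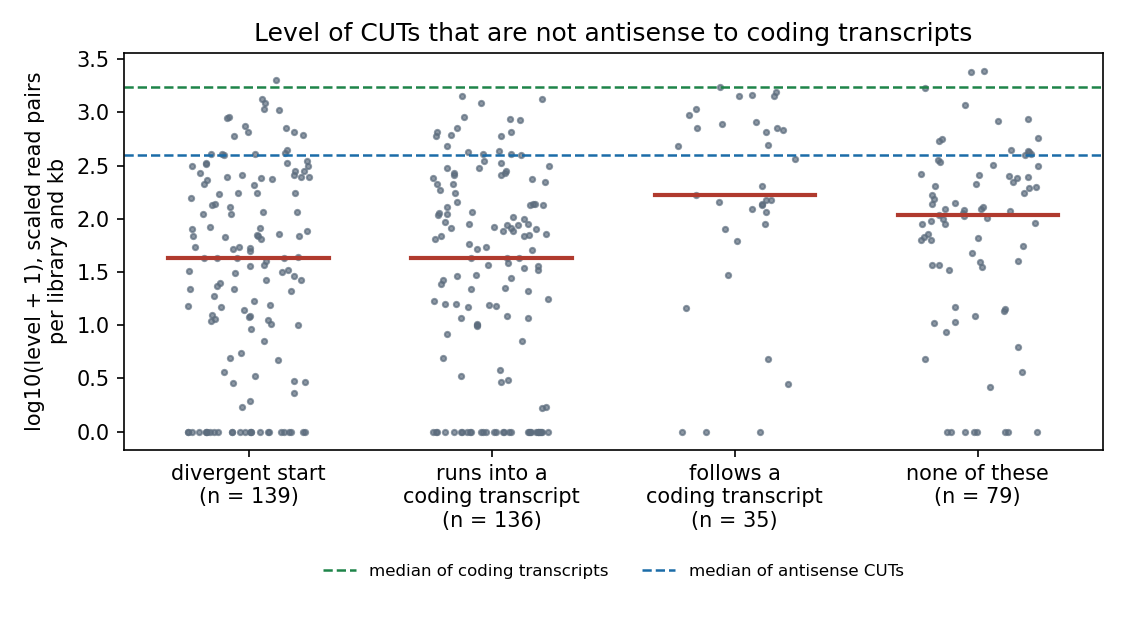
Level of each CUT on a log10 scale (mean over the 4 libraries of scaled read pairs per kb, plus 1) by its position relative to coding transcripts, with groups that share CUTs. Red lines are medians, at 41.7 for divergent CUTs and 167 for CUTs that follow a coding transcript, both below the dashed medians of antisense CUTs (394) and coding transcripts (1718).

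Position relative to genes went with the level. The 35 CUTs that began at the end of a coding transcript had a median of 167 pairs per library and kb, and 24 of them reached a mean of 20 pairs. Divergent CUTs had a median of 41.7, CUTs that ran into a coding transcript 42.0, and the 79 counted CUTs with none of these positions 107. With CUTs longer than 200 bp, with a SNP and outside chromosome XI, the medians were 690 over 15 CUTs that follow a gene, 70.5 over 91 divergent ones, 79.3 over 69 that run into a gene and 199 over 48 with none of these. These are descriptions of overlapping groups. Across CUTs, the level had little relation to that of a neighbour counted in the same libraries. Spearman's rho was 0.05 with the divergent neighbour (139 pairs), -0.01 with the coding transcript it follows (35 pairs) and 0.11 with the one it runs into (136 pairs). The CUT stood at 2.29% of the divergent neighbour's level in the median, and the neighbour was higher in 134 of 139 pairs.

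The 6 CUTs of highest level per kb reached the middle of the coding range. CUT047 (chromosome III, 163922 to 164314, plus strand), which has no coding transcript close by on its strand, was at 3726 and 1502 pairs per kb in hybrids A and B and at 2531 and 2041 in spore pools A and B. Its mean of 2450 ± 949 (SD, n = 4) was higher than the level of 59.5% of coding transcripts. CUT306 (chromosome XIII, 652601 to 652921, plus strand), 592 bp behind the ribosomal protein gene RPL36A, was at 3306, 2456, 685 and 3141 in the same order, with spore pool A the lowest by far. CUT816 (chromosome XIV, 525560 to 525824, minus strand) was the only divergent CUT of the 6, with its start 204 bp from that of VAC7, a vacuolar membrane protein. It was at 1082 and 1385 in the hybrids and at 3286 and 2239 in the pools.

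Among the other 3, CUT787 (chromosome XIII, 752965 to 753117, minus strand) began where the ribosomal protein gene RPL20A ended. It was at 2051 and 1169 pairs per kb in the hybrids and 1938 and 1784 in the pools. CUT551 (chromosome V, 222509 to 223269, minus strand) began where ARB1, which encodes an ATPase of ribosome assembly, ended. It was at 1375 and 909 in the hybrids and 2255 and 1630 in the pools. CUT827 (chromosome XV, 167502 to 167862, minus strand) was at 2130 and 1419 in the hybrids and 1480 and 1788 in the pools. Both pools lay above both hybrids for CUT816 and CUT551, as for 18.3% of all transcripts tested, and the groups overlapped for the other 4. None of the 6 was called for a change in total level.

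Replicates agreed less in level for these CUTs than for other transcripts. Among the 159 CUTs with a mean of at least 20 scaled pairs per library, the level of replicates had a Spearman's rho of 0.62 for hybrids and 0.62 for pools, against 0.99 and 0.95 over 5063 coding transcripts and 0.90 and 0.86 over 485 antisense CUTs. The median coefficient of variation was 49.9% between hybrids and 55.0% between pools, against 10.5% and 18.8% for coding transcripts. Median levels differed as well, at 92.4 pairs for these CUTs, 283 for antisense CUTs and 3115 for coding transcripts. For the allelic ratio the order of classes differed. Spearman's rho between the hybrids was 0.43 over the 155 CUTs tested, 0.15 for antisense CUTs, 0.32 for non-antisense SUTs and 0.35 for coding transcripts, and between the pools it was 0.28, 0.23, 0.32 and 0.39 in the same order.

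Counts of 1 library also came unevenly from its 3 sequencing lanes, and the lanes fall into lane 8 and lanes 6 and 7. This split was seen over 6508 transcripts of all classes. Spearman's rho was 0.998 between lanes 6 and 7 of a library. Between lane 8 and lane 6 or 7 of a library it was 0.917 to 0.928. Lane 8 of different libraries was more alike, at 0.951 to 0.972. Of 549 allele counts of these CUTs between 20 and 199 in lanes 6 and 7, 92 (16.8%) were 0 in lane 8. The share was 6.65% for antisense CUTs, 7.19% for non-antisense SUTs and 1.21% for coding transcripts. In the reverse direction, 79 of 452 (17.5%) were 0 in lanes 6 and 7. Each group was sequenced in every lane. The part of this unevenness in the results below was not tested. Calls from each set of lanes alone are given with the cis effects, as are counts of named CUTs whose lane sets lay on the other side.

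The first comparison asked which CUTs differ in total level, the sum of both alleles, between spore pools and hybrids. A single CUT, CUT461, passed the test in edgeR (false discovery rate under 0.2 and more than 1.5-fold), and none was lower in the pools, while DESeq2 called 3 higher and 4 lower. Leaving out a library moved these counts, to 6 higher and 12 lower without spore pool B, 2 and 4 without spore pool A, 3 and 1 without hybrid A and 1 and 1 without hybrid B. Shares over all transcripts are not given for DESeq2 or with a library left out. In the main fit 0.629% of the 159 CUTs tested were higher, against 1.07% higher and 0.0595% lower over all 6720 transcripts tested. At an unadjusted p under 0.05 there were 11 CUTs (6.92%), against 8.07% of all transcripts. The standard error of a CUT's log2 change was 1.18 in the median, against 0.28 for coding transcripts, so that a change of a few fold was not detectable for most of them. In RNA of whole cultures, fewer cells with a transcript and less of it per cell cannot be told apart.

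CUT461 (chromosome III, 29909 to 30405, minus strand, both ends mapped) had no pair in either hybrid. Spore pool A held 272 pairs of it and pool B 39. Its start lies 1028 bp from the nearest divergent coding start. Taking 3 pairs over both hybrids as the floor, it was 86.6-fold higher in both pools together (adjusted p = 0.138, edgeR's quasi-likelihood test). This floor covers counting error only, not the unevenness between lanes, so the fold is no lower bound. Both alleles contributed, with 126 SK1 and 146 S96 pairs in pool A and 34 and 5 in pool B. Most pairs of pool A, 210 of 272, came from lane 8. Pool A held 87.5% of the pairs, and without it the CUT was under the count minimum and could not be tested. With counts of lane 8 alone the adjusted p was 0.321.

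CUT007 was the nearest CUT outside the limit. It starts opposite PEP1, the vacuolar sorting receptor, and had no pair in the hybrids and 151 and 36 in the pools (adjusted p = 0.226). In the other direction, CUT488, which runs into PSA1 (GDP-mannose synthesis), had 26 and 74 pairs in the hybrids and none in the pools (adjusted p = 0.336). Both were named after their values were seen. Over the CUTs tested, both pools lay above both hybrids for 19 (11.9%) and below for 28 (17.6%), against 18.3% and 18.3% of all transcripts.

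**Figure D3:**
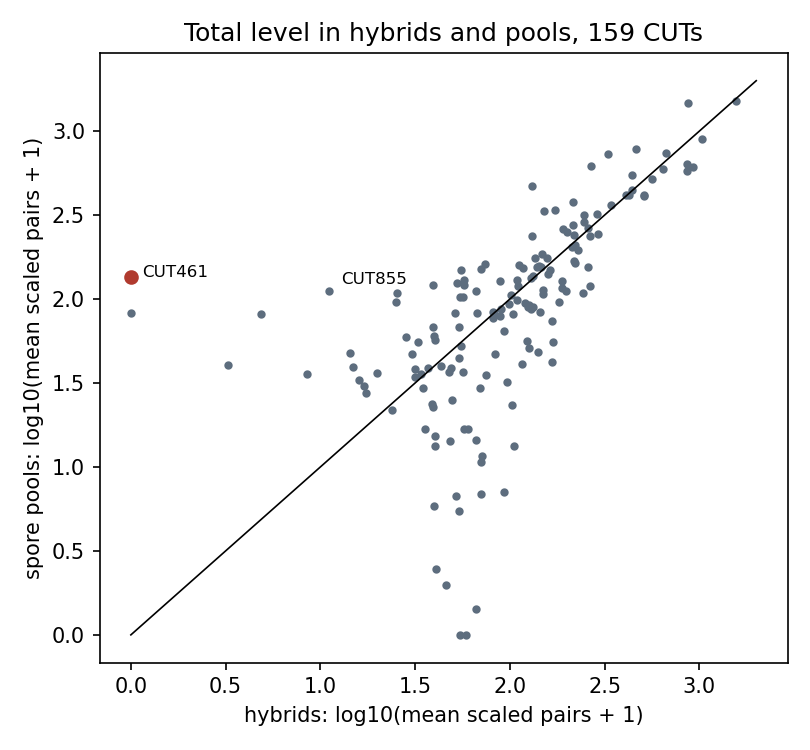
Mean scaled pairs per library, plus 1, on log10 scales in the hybrids (x axis) and the spore pools (y axis) for the 159 CUTs tested, with the line of equal level. CUT461 (red) is the only CUT called, at 0 in both hybrids, and CUT855 is the CUT opposite STE4.

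The pools differ from the hybrids in ploidy and mating type, and genes of a cells moved with them. All of 6 a-specific genes were tested and 5 rose in the pools, by 3.40 to 8.41 on the log2 scale, while MFA1 was at 3.40 with an adjusted p of 0.743. Of 4 alpha-specific genes none was called. The 5 haploid-specific genes annotated as coding transcripts of their own all rose. In 138 divergent pairs the neighbour was tested, and 2 neighbours were called, both higher in the pools. Of the 5063 coding transcripts tested, 61 were called higher and 3 lower. The 2 of 138 lie near this rate and do not set divergent neighbours apart from other coding transcripts. STE4, the G protein beta subunit of the pheromone response, had 1213 and 1045 pairs in the hybrids and 9331 and 10714 in the pools, a log2 change of 2.90 ± 0.28 (SE, adjusted p = 0.000153). Its CUT, CUT855 (chromosome XV, 741774 to 742246, minus strand), starts 452 bp away and runs into MGM1. It had 18 and 0 pairs in the hybrids and 0 and 224 in the pools, so that the groups overlapped (log2 change 3.43 ± 2.17, adjusted p = 0.782). CAN1, the arginine permease, had 207 and 216 pairs in the hybrids and 11377 and 9189 in the pools, and CUT104, whose start is 436 bp away, had no pair in any library. Both pairs were named after their values were seen.

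The next comparison asked whether a CUT and its divergent neighbour change together. In 62 pairs with both tested, Spearman's rho of the log2 changes between hybrid and pool was 0.25, and the signs were the same in 33 pairs. With the coding transcript downstream on the same strand rho was -0.04 (75 pairs), and with the one upstream 0.22 (30 pairs). For divergent pairs of antisense CUTs it was 0.02 (270 pairs), of non-antisense SUTs 0.17 (126 pairs) and of 2 coding transcripts 0.13 (863 pairs). CUT and neighbour were counted in the same libraries, and they share them and their scaling. With CUT and neighbour both taken from replicate A rho was 0.118, and with both from replicate B 0.112. With the CUT taken from replicate A and the neighbour from B rho was -0.145, and with the reverse 0.16. The value thus fell with single replicates and changed sign with the CUT from A and the neighbour from B. The part of the shared libraries in it was not tested.

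**Figure D4:**
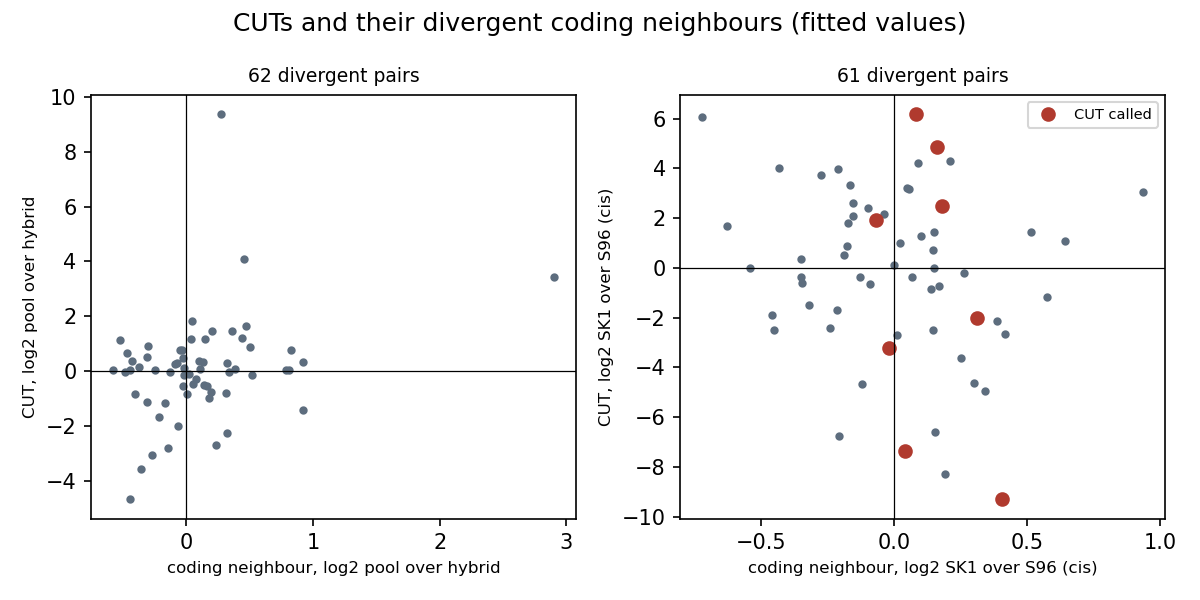
Fitted log2 values of CUTs (y axis) against their divergent coding neighbours (x axis), for the change from hybrid to pool (left, 62 pairs, Spearman's rho of the measured changes 0.25) and for the cis effect (right, 61 pairs, rho of the measured hybrid ratios -0.155). Red points are CUTs called for a cis effect, 8 in all, and the scales differ between axes, CUTs spreading much wider than their neighbours. CUTs also had larger standard errors, in cis 2.06 in the median against 0.25 over all coding transcripts.

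Allelic differences in the hybrid were called for 23 of the 155 CUTs tested, 13 toward SK1 and 10 toward S96. Without hybrid B 7 of 151 were called, 2 toward SK1 and 5 toward S96, all among the 23. The 23 calls are 8.39% and 6.45%, against 4.55% toward SK1 and 7.04% toward S96 over all 6705 transcripts tested. At an unadjusted p under 0.05 there were 25 CUTs (16.1%), against 19.7% of all. By class, 5.39% of antisense CUTs, 15.3% of non-antisense SUTs and 11.6% of coding transcripts were called. The called CUTs had large ratios, with a median size of 4.86 on the log2 scale against 1.06 for called coding transcripts, and a median standard error of 2.09 over all CUTs tested against 0.25 for coding transcripts. Ratios of 44 CUTs (28.4%) had the same sign in all 4 libraries, against 33.2% of all transcripts, and 13 of these were among the 23 called.

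**Figure D5:**
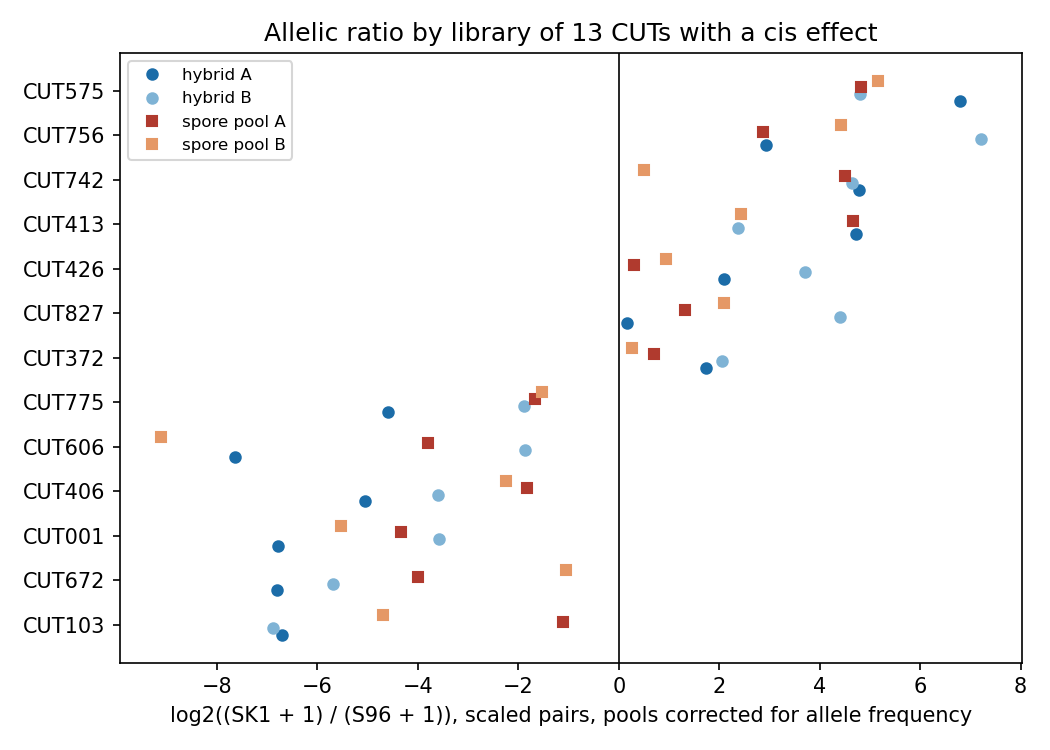
Log2 ratio of SK1 over S96 scaled pairs (1 added to each) in each library, for the 13 called CUTs with the same sign in all 4 libraries. Both pools were corrected for the allele frequency of pool A. Circles are hybrids and squares spore pools. 7 CUTs lie toward SK1 and 6 toward S96, and libraries of 1 CUT differ by up to several log2 units.

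Toward SK1, the call with the lowest adjusted p was CUT756 (chromosome XII, 1043020 to 1043604, minus strand). It starts 276 bp from FMP27 and runs into RIF2, a regulator of telomere length. SK1 had 297 and 438 pairs in the hybrids (A, then B) and 309 and 515 in the pools (A, then B), and S96 had 38, 2, 43 and 24. The gap between alleles was narrowest in hybrid A and pool A, and the cis effect was 4.87 ± 1.15 on the log2 scale (SE, adjusted p = 0.0121). The fitted effect of FMP27 was 0.16 ± 0.35 (adjusted p = 0.863). RIF2, into which the CUT runs, was called in the opposite direction, at -1.78 (adjusted p = 0.0279), and was named after its value was seen.

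CUT575 (chromosome VI, 118637 to 119165, minus strand) starts 220 bp from SMC1, a subunit of cohesin. SK1 had 97, 165, 268 and 73 pairs in the same order of libraries, and S96 had 0, 5, 8 and 1. The cis effect was 6.17 ± 1.78 (adjusted p = 0.0421), against 0.08 ± 0.30 for SMC1, which had 1212 to 3028 pairs. CUT372 (chromosome XV, 397570 to 398034, plus strand) starts 204 bp from AKR2, a relative of the palmitoyltransferase AKR1. SK1 had 354, 232, 495 and 89 pairs and S96 had 105, 55, 298 and 73, for a cis effect of 1.91 ± 0.73 (adjusted p = 0.135). AKR2 was at -0.07 ± 0.38. The alleles of CUT372 lay closer together in the pools than in the hybrids, and those of CUT575 far apart in all libraries.

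The other 4 toward SK1 had no divergent coding start within the limit. CUT742 (chromosome XII, 657653 to 658085, minus strand) had 161, 272, 98 and 78 SK1 pairs and 5, 10, 3 and 52 S96 pairs, with pool B apart from the other libraries. CUT413 (chromosome XVI, 304113 to 304313, plus strand), which begins where the ribosomal protein gene RPL5 ends, had 259, 179, 155 and 86 SK1 pairs and 9, 34, 5 and 15 S96 pairs. RPL5 itself was at 0.08 (adjusted p = 0.243). CUT426 (chromosome XVI, 621331 to 621923, plus strand) had 122, 156, 201 and 249 SK1 pairs and 28, 11, 160 and 127 S96 pairs. CUT827 had 359, 463, 493 and 564 SK1 pairs and 322, 21, 136 and 91 S96 pairs. The adjusted p values of these 4 were 0.0711, 0.161, 0.121 and 0.196, and without hybrid B the cis effect of CUT827 was 0.16 in place of 2.20. In hybrid A its lane 8 held 148 SK1 and 303 S96 pairs and lanes 6 and 7 held 211 and 19.

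Toward S96, CUT103 (chromosome V, 9969 to 10497, plus strand) lies near the left end of its chromosome. S96 had 92, 110, 220 and 61 pairs, and SK1 had 0, 0, 80 and 1. With 3 pairs over both hybrids as the floor, by counting error only, S96 was 67.3-fold higher in the hybrids (adjusted p = 0.0234). All 80 SK1 pairs of pool A came from lanes 6 and 7, with none in its lane 8. Whether the SK1 allele is counted as readily as the S96 allele was not tested. CUT672 (chromosome X, 96757 to 97501, minus strand) starts 124 bp from CPS1, a vacuolar carboxypeptidase. S96 had 98, 48, 127 and 36 pairs and SK1 had 0, 0, 7 and 17. By the same floor S96 was 48.7-fold higher in the hybrids (adjusted p = 0.0735). The SK1 pairs of both pools all came from lane 8. CPS1 was at 0.41 ± 0.33, in the opposite direction and not called.

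CUT775 (chromosome XIII, 512021 to 513341, minus strand) starts 212 bp from PKR1, which serves the assembly of the vacuolar ATPase. S96 had 285, 150, 520 and 524 pairs and SK1 had 11, 40, 144 and 161. The cis effect was -3.22 ± 0.87 (adjusted p = 0.0286), against -0.02 ± 0.29 for PKR1, which had 1585 to 3151 pairs. The SK1 pairs were fewest in the hybrids, and the CUT held 25 SNPs.

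CUT001 (chromosome I, 30073 to 30905, plus strand), 248 bp before the glutamate dehydrogenase gene GDH3, had 97, 58, 161 and 114 S96 pairs and 0, 4, 5 and 1 SK1 pairs. CUT406 (chromosome XVI, 182953 to 183177, plus strand) begins where RSA1, a factor of snoRNP assembly, ends. It had 128, 156, 111 and 148 S96 pairs and 3, 12, 30 and 30 SK1 pairs, while RSA1 was called toward SK1 at 0.95 (adjusted p = 0.0188). CUT606 (chromosome VII, 534999 to 535251, minus strand), 128 bp before the ribosomal protein gene RPS25A, had 176, 46, 440 and 541 S96 pairs and 0, 12, 33 and 0 SK1 pairs. The adjusted p values of these 3 were 0.137, 0.0929 and 0.161.

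The same sign in all 4 libraries was part of the rule that named these 13 CUTs. Several of their calls were lost when 1 library was left out. Of the 13 named CUTs, CUT756, CUT575 and CUT103 remained called without any single library. Without hybrid A 8 lost the call (CUT742, CUT413, CUT372, CUT672, CUT001, CUT406, CUT606 and CUT775), and without hybrid B 6 did (CUT742, CUT413, CUT426, CUT827, CUT372 and CUT406). CUT827 also lost it without pool B, and CUT372 without pool A. None changed sign, and some kept their size, as CUT742 did at 4.75 and 4.98 without hybrid A and B, in place of 4.86. In DESeq2 CUT606 was not called (adjusted p = 0.229). With counts of lane 8 alone 8 of 117 CUTs tested were called, 7 of them among the 23, and with lanes 6 and 7 alone 7 of 114, all among the 23. CUT756 was not called with lane 8 alone (adjusted p = 0.319, edgeR's quasi-likelihood test). CUT575 and CUT103 were not called with lanes 6 and 7 alone (adjusted p = 0.299 and 0.379, same test). CUT775 was at -1.74 with lanes 6 and 7 alone and not called (adjusted p = 0.81, same test). Of the 13 named CUTs, only CUT606 was called with lane 8 alone and also with lanes 6 and 7 alone. Split by library and lane set, all 8 raw differences lay on the called side for CUT575, CUT756, CUT742, CUT413, CUT406 and CUT606. For the other 7 CUTs 1 or 2 of the 8 lay on the other side. Their counts follow as SK1, then S96 pairs. CUT426 held 142 and 160 in lane 8 of pool A, and CUT775 held 22 and 4 in lanes 6 and 7 of hybrid B. CUT372 held 218 and 233 in lanes 6 and 7 of pool A and 62 and 63 in lane 8 of pool B. In lanes 6 and 7 of pool A, CUT103 held 80 and 70 and CUT001 held 3 and 2. CUT672 held 17 and 16 in lane 8 of pool B, and counts of CUT827 are given above.

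Over the 61 divergent pairs with both transcripts tested, the measured allelic ratio of the CUT showed little relation to that of its neighbour. Spearman's rho of the hybrid ratios was -0.155, and the cis effects had the same sign in 28 pairs. Of the 8 CUTs called, 4 had a neighbour of the same sign, and none had a called neighbour. In these 61 pairs 1 neighbour was called (1.64%), against 11.6% of coding transcripts. Neighbours of CUTs that were not tested are left out of this share. Of those, NRD1, JLP2, YJR085C, SGE1, YBR201C-A and YBR242W were called in cis. The share over all 139 pairs was not computed, so 1.64% does not stand for divergent neighbours as a whole. The median size of the cis effect was 2.18 for the CUTs and 0.18 for the neighbours. The median standard error was 2.06 for divergent CUTs, near the size of the effect itself, and 0.25 over all coding transcripts tested. The sizes thus cannot be set against each other as effects, and errors this large also limit what rho can show. For the coding transcript downstream on the same strand rho was -0.10 (72 pairs), for divergent pairs of antisense CUTs -0.10 (268 pairs), of non-antisense SUTs 0.06 (126 pairs) and of coding transcripts -0.01 (863 pairs). The difference between CUT and neighbour was not tested pair by pair.

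No local trans effect was called among the 155 CUTs, against 0.134% of all 6705 transcripts (9). At an unadjusted p under 0.05 there were 5 CUTs (3.23%), against 5.80% of all, and DESeq2 called 4. The median standard error was 2.82 on the log2 scale, against 0.35 for coding transcripts, so that most changes of ratio were beyond detection. The lowest p belonged to CUT754 (chromosome XII, 963124 to 963548, minus strand), named after its values were seen, which starts 156 bp from URA4, the dihydroorotase of pyrimidine synthesis. In the hybrids SK1 had 278 and 413 pairs and S96 had 67 and 53. In the pools SK1 had 284 and 61 and S96 had 492 and 178, with SK1 at 46.1% of the DNA of spore pool A there. The ratio thus lay toward SK1 in both hybrids (cis effect 2.50, adjusted p = 0.0445) and toward S96 in both pools (local trans effect -3.44 ± 1.01, adjusted p = 0.516). URA4 was at 0.18 ± 0.19 in cis.

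The SK1 allele made up 25.4% to 88.8% of the DNA of spore pool A at these CUTs, with a median of 49.5%, and was more than 10 percentage points from 50% at 15 of them. CUT047 was one of these, at 81.6%. Without the correction 1 CUT was called in local trans.

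The machinery that ends and degrades CUTs was read from 28 genes, of which 27 were tested. None was called for a change in total level, and their log2 changes ran from -0.52 to 0.08, with a median of -0.21 and 25 below 0, against a median of 0.01 over all transcripts. MTR4, the helicase of TRAMP, was the lowest at -0.52 ± 0.24 (adjusted p = 0.616), and RRP6, the nuclear exonuclease, was at -0.11 ± 0.23. In cis, 3 of 27 were called (11.1%), against 11.6% of all transcripts. RRP45, a subunit of the exosome core, was at -0.91 (adjusted p = 0.015) and SSU72, a phosphatase of the termination machinery, at -1.86 (adjusted p = 0.0447), both toward S96. NRD1, which binds nascent CUTs, was at 0.76 ± 0.17 toward SK1 (adjusted p = 0.00745), with 5827 to 7694 pairs. CUT320, which starts 292 bp from NRD1, had 6 pairs in pool A, all S96, and none elsewhere, so that it could not be tested. No gene of the list had a called local trans effect.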

How the data were processed

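RNA of 2 hybrid cultures and 2 spore pools was sequenced in 3 lanes, by a protocol that keeps the strand. The authors mapped read pairs to both genomes with GSNAP and counted pairs specific to an allele with htseq-count (HTSeq 0.5.4p5), over transcripts extended by 50 bp. The deposited counts per allele and lane are not normalized. DNA tables hold deposited counts of reads per SNP on R64. They do not name the allele of a column, which was taken from the mapping bias toward S288c given in the methods. Transcript positions come from the deposited annotation, whose build is not given in the sources used here. Outside chromosome XI 91.9% of coding transcripts contained their own R64 coding sequence, and on XI 29.7%, so SNP counts inside CUTs are approximate and chromosome XI was left out of them.

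Lanes were summed, 5 summary lines were left out, and TMM size factors (0.886, 0.945, 1.18 and 1.01) were computed on the sum of alleles. edgeR 4.0.16 (R 4.3.3) quasi-likelihood tests were fitted over all transcripts, for the total level (mean of at least 20 pairs per library) and for cis and local trans terms beside library terms (mean of at least 10 per allele column and 1 read of each allele), and adjusted by Benjamini-Hochberg. Calls needed a false discovery rate under 0.2 and more than 1.5-fold. Allele frequency of pool A, smoothed with locfit 1.5.9.12 over 28000 bp (SNPs with at least 10 reads), was an offset in both pools and 0.5 in the hybrids. Ratios and changes of neighbours used log2 of scaled pairs plus 1. Floors of 3 counts cover counting error only, since PCR copies of a molecule are counted as separate reads.

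The rule for members used positions only, but it and the gene lists were set with earlier results of these data known. Named were the 6 CUTs of highest level, up to 10 called per direction in total level with pools and hybrids apart, up to 8 called per direction in cis with the same sign in all 4 libraries and a mean of at least 20 pairs per allele column, any called in local trans, their divergent neighbours, and called genes of the decay list. Alternatives were DESeq2 1.42.0, other size factors, count minimums, thresholds, allele frequencies, distances and pseudocounts, left-out libraries and a replicate block. Lane 8 alone and lanes 6 and 7 alone were chosen after seeing the data. Figures were made with Python 3.11.15 and matplotlib 3.10.9.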

Additional observations from a re-analysis of the deposited data

Results flagged for a closer look

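CUT442 and CUT572 have a row for the S96 allele only and entered no comparison. On CUT442 (chromosome I, 199979 to 200419, minus strand) S96 pairs numbered 59 and 41 in the hybrids (A, then B) and 53 and 9 in the pools, 162 in all, above the 3 that a count of 0 allows. On CUT572 (chromosome V, 567037 to 567581, minus strand) they numbered 10, 13, 144 and 47, 214 in all.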

How the results depend on the processing

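The count of 1 CUT changed in total level became 7 with DESeq2 (1 shared), 2 without a count minimum and 0 with at least 50 reads per allele column. It was 0 at a false discovery rate under 0.05, and 0 with lane 8 or with lanes 6 and 7 alone. Without chromosomes III and XI it was 0 by design, since CUT461 lies on chromosome III. Without single replicates it ranged from 2 to 18. The 23 CUTs with a cis effect became 47 with DESeq2 (22 shared), 5 at a false discovery rate under 0.05, 10 among CUTs apart from other transcripts of the same strand, 8 with lane 8 alone and 7 with lanes 6 and 7 alone, and ranged from 7 (without hybrid B) to 22 without single replicates. The 0 local trans effects became 4 with DESeq2 and 1 without the allele frequency correction, and ranged from 0 to 0 without single replicates. The letters A and B are shared by hybrids and pools, and the main fits did not pair them. Same-lettered samples did not deviate together (correlation of deviations 0.03 in total level and -0.004 in allelic ratio). Whether they share a preparation or batch was not tested. With a replicate block 2 CUTs were called in total level, 28 in cis (all 23 among them) and 0 in local trans. The 10 cis calls among CUTs apart from other transcripts of the same strand are of 48 tested, against 23 of 155 in the main fit. They are a part of the 23, and the others were left out by position. Other settings kept the counts within 1.5 times, and no named CUT changed sign. Shares over all transcripts are given for the main fit only, so counts under other settings cannot be set against them.

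Spearman's correlation of the changes of CUTs and divergent neighbours was 0.248, and 0.138 within 200 bp, 0.129 within 1000 bp, 0.198 with at least 50 reads, 0.348 as Pearson's r, -0.145 with the CUT from replicate A and the neighbour from B, 0.164 with the reverse, and 0.136 to 0.257 without single replicates. With both from replicate A it was 0.118, and with both from replicate B 0.112. Spearman's correlation of the hybrid ratios was -0.155, and -0.192 within 200 bp, -0.125 within 1000 bp, -0.098 with at least 50 reads, -0.131 as Pearson's r, -0.146 with a pseudocount of 5, -0.214 and -0.052 with crossed replicates, and -0.05 to -0.041 without single replicates. The median level of 69.1 was 253 over CUTs with at least 10 reads per allele column, 48.3, 32.9, 26.4 and 45.6 in single libraries and 13.9 per SNP. With 2 libraries per group and few pairs per CUT, depth limits every comparison of single CUTs.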
